A study of Sus scrofa with 14 samples.

Results

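The complement genes transcribed in pig adipose tissue were examined in greater omentum fat (GOM) and in the upper layer of backfat (ULB) of wild boars (WB) and Bama pigs (BM). The genes listed by symbol were C1QA, C1QB, C1QC, C1R, C1S, C2, C3, CFB and C7, and 7 of these 9 genes were matched by Ensembl ID among the 21280 genes of the count and TPM values. The IDs paired with C1R and C1S were not matched, so the expression of the 2 proteases was not analysed here. The 7 RNA-seq libraries were WB-GOM-1, WB-GOM-2, BM-GOM-1, BM-GOM-2, WB-ULB-1, WB-ULB-2 and BM-ULB-2, and 7 Hi-C libraries carried the same names. All animals were 2-year-old females for which no treatment was named, each library was 1 animal and depot, and the first BM-ULB library was not analysed here. Each breed was represented by 2 animals, and Bama pig ULB by 1 library, so that p-values between breeds rest on very few animals.

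Complement is a cascade of plasma proteins that tags microbes, immune complexes and dying cells. The classical pathway starts with C1q, a protein built of the A, B and C chains that is made chiefly by macrophages and dendritic cells, and proceeds through the proteases C1r and C1s to C4 and C2. The alternative pathway runs on factor B and factor D, of which factor D (adipsin) is a well-known adipocyte product. Both pathways form convertases that cleave C3, and C7 is one of the later proteins that assemble the membrane attack complex. The liver is the main source of most plasma complement proteins, but not of C1q, and adipose tissue transcribes several of them locally.

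Adipocyte genes were abundant in all 7 RNA-seq libraries, with ADIPOQ (adiponectin) at 2387 to 5332 TPM and FABP4 at 4997 to 9823 TPM. Library totals ran from 10833153 to 18627076 estimated counts. Several libraries carried transcripts of genes typical of other tissues, and the origin of these transcripts was not tested. The summed TPM of 11 measured liver genes, of 12 listed, was 7.66 to 14.5 in the 4 WB libraries but 130.1 to 1326 in the 3 BM libraries. ALB (albumin) followed the same split. Skeletal muscle genes were high in WB-ULB-1 alone, with 3 genes summing to 290.9 TPM against 2.03 to 6.41 in the other libraries. HBB (beta globin) was at 7842 and 12500 TPM in the 2 WB-GOM libraries and at 170.8 to 2299 TPM elsewhere. In such bulk samples, fewer cells of a type and less RNA per cell cannot be told apart.

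C1QC and C1QB were, with C3, the most abundant of the members, and all 3 C1q chain genes had a higher mean TPM in GOM than in ULB, of which C1QC passed the test. They lie in one cluster on chromosome 6 of Sscrofa11.1, on the plus strand, in the order C1QA (chr6:80586259-80589213), C1QC (chr6:80592591-80597464) and C1QB (chr6:80601680-80606076), over 19818 bases. The 250 bases before each annotated start site are shown because the chains form 1 protein and their genes were compared as a group, with capitals marking matches to the PU.1 core motif GAGGAA on either strand.
C1QA upstream sequence: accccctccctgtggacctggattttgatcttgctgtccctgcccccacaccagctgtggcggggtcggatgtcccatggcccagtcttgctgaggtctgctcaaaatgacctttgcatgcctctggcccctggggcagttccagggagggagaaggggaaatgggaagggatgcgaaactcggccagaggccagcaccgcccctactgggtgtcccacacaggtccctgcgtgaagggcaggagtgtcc
C1QC upstream sequence: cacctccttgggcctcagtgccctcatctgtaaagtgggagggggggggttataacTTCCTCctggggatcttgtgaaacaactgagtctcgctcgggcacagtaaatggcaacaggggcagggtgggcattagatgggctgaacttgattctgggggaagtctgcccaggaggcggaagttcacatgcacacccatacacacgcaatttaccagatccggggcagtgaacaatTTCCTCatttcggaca
C1QB upstream sequence: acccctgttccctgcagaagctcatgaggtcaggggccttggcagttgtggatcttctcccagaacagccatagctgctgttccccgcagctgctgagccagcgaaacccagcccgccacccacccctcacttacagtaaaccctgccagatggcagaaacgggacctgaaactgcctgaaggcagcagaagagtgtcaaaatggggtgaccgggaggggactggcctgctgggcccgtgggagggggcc
The C1QC sequence (chr6:80592341-80592590) held 2 matches on the minus strand, at 194 and 16 bases before the start site, whereas the C1QA (chr6:80586009-80586258) and C1QB (chr6:80601430-80601679) sequences held none. Of 19556 upstream sequences of the same length, 22.0% held this motif, and a match is a description of letters rather than of binding.

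C1QA was at 223 TPM in WB-GOM-1, 91.7 in WB-GOM-2, 63.1 in BM-GOM-1 and 100 in BM-GOM-2, and at 56.6 in WB-ULB-1, 34.8 in WB-ULB-2 and 40.6 in BM-ULB-2. C1QC was at 885, 390.4, 302 and 342 TPM in these GOM libraries and at 233, 162 and 109 TPM in the ULB libraries. For both chains every GOM library stood above every ULB library, and WB-GOM-1 was the highest. C1QB was at 576, 271, 472 and 187.4 TPM in GOM and at 124, 89.8 and 186.7 TPM in ULB. Thus the lowest GOM library and the highest ULB library, both from Bama pigs, were nearly level for C1QB. By geometric mean TPM, GOM over ULB was 3.22 for C1QA, 3.75 for C1QB and 3.03 for C1QC in wild boars. It was 1.96, 1.59 and 2.96 in Bama pigs, with 1 ULB library. On CPM scaled by TMM it was 3.81, 4.44 and 3.58 in wild boars and 1.41, 1.15 and 2.13 in Bama pigs. Over both breeds, the mean TPM was 2.71-fold higher in GOM for C1QA, 2.83-fold for C1QB and 2.86-fold for C1QC. Of these, C1QC passed the test of the depot difference, which was fitted over all 7 libraries with breed as a term (log2 fold change 1.56, SE 0.35, adjusted p = 0.0372 by the edgeR quasi-likelihood test with Benjamini-Hochberg adjustment). C1QA (1.37, SE 0.42, adjusted p = 0.106) and C1QB (1.39, SE 0.47, adjusted p = 0.139) did not pass the same edgeR test. With breed and replicate number together as a block, which treats libraries of 1 number and breed as 1 animal, C1QA passed (1.59, adjusted p = 0.0123 by edgeR). BM-GOM-1 had no ULB partner in that fit and did not bear on the value. The call of C1QC was kept only without BM-GOM-1 or without WB-GOM-2, and was lost under each of the other 5 omissions of 1 library, with adjusted p of 0.0525 without BM-GOM-2, 0.0872 without WB-GOM-1, 0.1 without BM-ULB-2, 0.126 without WB-ULB-1 and 0.143 without WB-ULB-2 in edgeR.

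**Figure D1:**
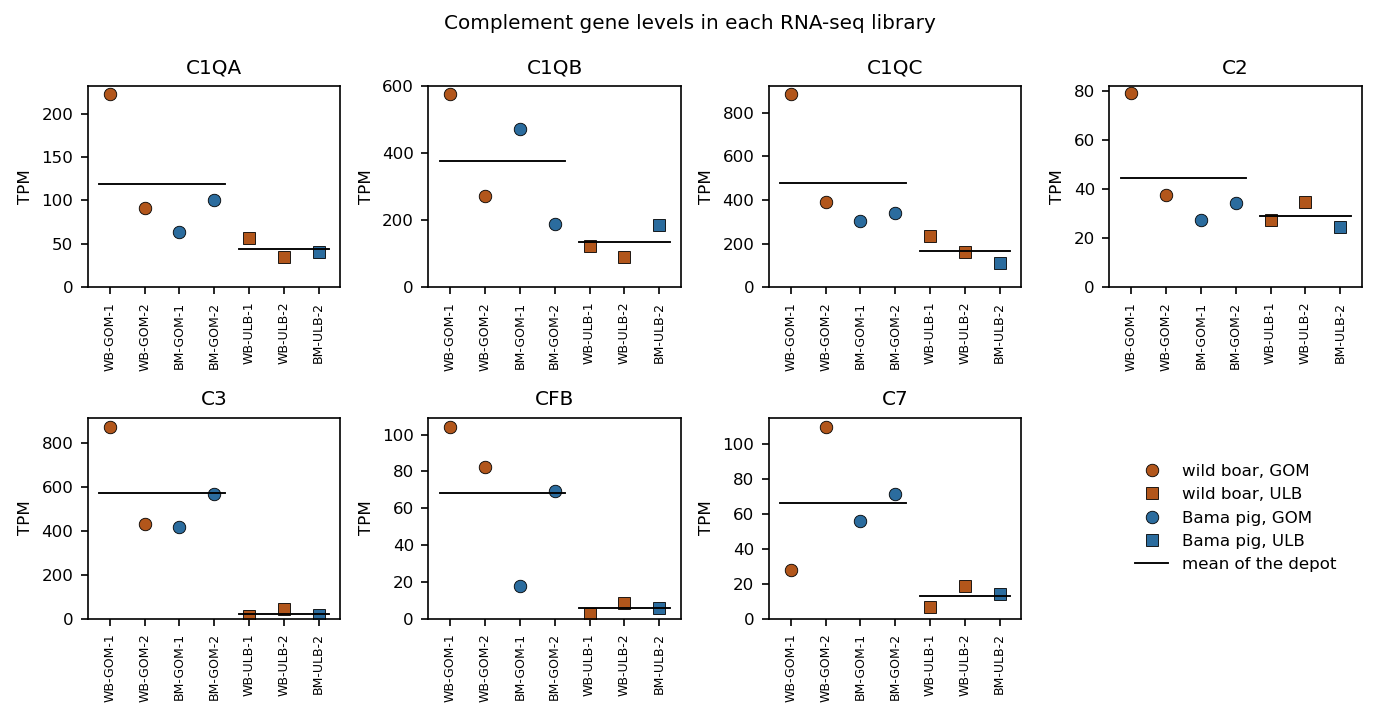
TPM of the 7 measured complement genes in each RNA-seq library, with 1 panel per gene, 1 point per library (circles GOM, squares ULB, brown wild boar, blue Bama pig) and lines at the mean of each depot. C3 and CFB show the widest gap between depots, C2 overlaps between depots, and WB-GOM-1 is the highest library for C1QA, C1QB, C1QC, C2, C3 and CFB.

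The chains did not keep a single ratio. C1QC over C1QA was 2.68 to 4.8 in TPM, with the lowest value in BM-ULB-2. C1QB over C1QA was 1.87 to 2.96 in 5 libraries but 7.49 in BM-GOM-1 and 4.60 in BM-ULB-2. These 2 libraries were also the only ones in which C1QB was above C1QC, with C1QC over C1QB at 0.641 and 0.583 against 1.44 to 1.89 in the other 5. Both were from Bama pigs, whereas the third Bama pig library, BM-GOM-2, had the lowest C1QB over C1QA ratio of all 7.

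**Figure D2:**
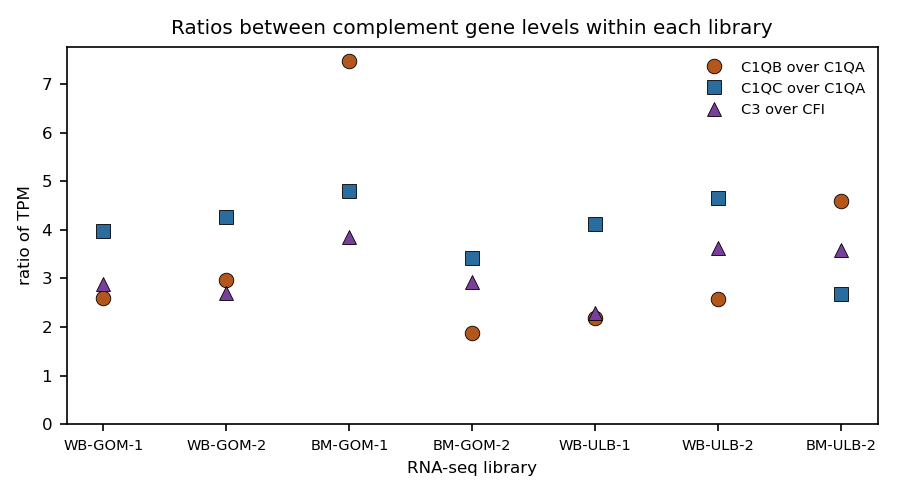
Ratios of TPM between complement genes in each RNA-seq library (circles C1QB over C1QA, squares C1QC over C1QA, triangles C3 over CFI). C1QB over C1QA stands apart in BM-GOM-1 (7.49) and BM-ULB-2 (4.60), whereas C3 over CFI stays between 2.28 and 3.85.

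Macrophage markers had the same sign as C1q in the depot fit, and 1 of them passed the test. All 10 listed markers were measured, none was at 0 in any library, and their summed level was 587 to 1036 TPM in GOM and 418.5 to 758 TPM in ULB, which overlap. The summed C1q level was 629.8 to 1684 TPM in GOM and 286.5 to 413 TPM in ULB, a 2.83-fold difference of means. Per library, summed C1q over summed macrophage markers ran from 0.378 in WB-ULB-2 to 1.63 in WB-GOM-1. In the depot fit all 10 markers had a positive log2 fold change with a median of 0.72, beside 0.02 over all genes tested, and MARCO (a scavenger receptor of macrophages) rose (5.18, SE 0.94, adjusted p = 0.0144 by edgeR). MARCO was scarce in ULB, at 0.281 to 0.628 TPM. It was uneven in GOM, at 63.4 and 13.7 TPM in WB-GOM and 3.57 and 3.48 TPM in BM-GOM. CD163 and CSF1R, which define tissue macrophages, had values of 1.39 (adjusted p = 0.145) and 0.47 (adjusted p = 0.478) in that edgeR fit. The part of macrophage content in the C1q difference was not tested.

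C3 and CFB, both parts of the alternative pathway convertase, gave the widest depot differences of the members. C3 (chr2:72431470-72471622, plus strand), the protein on which all pathways converge, was at 874 TPM in WB-GOM-1, 432.5 in WB-GOM-2, 417 in BM-GOM-1 and 569 in BM-GOM-2. In ULB it was at 12.2 TPM in WB-ULB-1, 41.7 in WB-ULB-2 and 15.1 in BM-ULB-2. Hence the lowest GOM library was 10-fold above the highest ULB library. By rank among all listed genes, C3 stood between places 118 and 254 in GOM and between places 3365 and 6898 in ULB. CFB (factor B, the catalytic part of the alternative pathway convertase) was at 104, 82.2, 17.5 and 69.1 TPM in the GOM libraries in the same order and at 2.45, 8.61 and 5.53 TPM in the ULB libraries. All GOM libraries stood above all ULB libraries for CFB as well, with BM-GOM-1 the lowest of the 4. In the edgeR fit C3 rose by a log2 fold change of 4.74 (SE 0.50, 95% interval 3.62 to 5.86, adjusted p = 0.000921) and CFB by 3.59 (SE 0.64, interval 2.16 to 5.01, adjusted p = 0.0136). The call of C3 was kept under each omission of 1 library, and that of CFB was lost under 1 of 7, without WB-ULB-2 (adjusted p = 0.0577 by edgeR).

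C2, the classical pathway counterpart of factor B, was different. It was at 79.3, 37.4, 27.3 and 34.2 TPM in the GOM libraries and at 27.5, 34.5 and 24.5 TPM in the ULB libraries, and the groups overlapped. Its depot difference was 0.60 on the log2 scale (SE 0.33, 95% interval -0.13 to 1.33, adjusted p = 0.337 by edgeR). C2 (chr7:24020590-24034042) and CFB (chr7:24034077-24040523) are head-to-tail neighbours on the plus strand, and 34 bases separate the annotated end of C2 from the start of CFB. These bases (chr7:24034043-24034076) are shown because CFB passed the test and C2 did not although so little sequence lies between them, and the difference between the 2 genes was not tested.
C2-CFB gap upstream sequence: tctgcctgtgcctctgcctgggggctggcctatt
CFB over C2 in TPM was 1.31, 2.20, 0.641 and 2.02 in the GOM libraries and 0.0891, 0.250 and 0.226 in the ULB libraries, without overlap. Reads that run from C2 into CFB cannot be assigned from the gene values. C3 upstream bases (chr2:72431220-72431469) are given for the member with the widest depot difference.
C3 upstream sequence: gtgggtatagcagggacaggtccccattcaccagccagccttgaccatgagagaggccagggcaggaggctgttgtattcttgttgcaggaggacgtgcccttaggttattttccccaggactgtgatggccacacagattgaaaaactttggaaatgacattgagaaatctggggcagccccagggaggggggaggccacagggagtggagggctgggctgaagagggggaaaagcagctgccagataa
No match was found in it, nor in the C1QA, C1QB, C2 and C7 windows, to the core letters searched on both strands for PU.1 (GAGGAA), C/EBP (TTGCNNAA), STAT (TTCNNNGAA), AP-1 (TGANTCA) or IRF (its core repeat). Among all upstream sequences of this length, 8.22%, 6.12%, 5.27% and 3.01% held the last 4 of these. The CFB window runs into an exon of C2 and is left out here.

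C7 (chr16:25846860-25902707, plus strand), the only terminal pathway gene listed, was at 28.1, 110.3, 56.0 and 71.5 TPM in the GOM libraries and at 6.70, 18.9 and 14.2 TPM in the ULB libraries. All GOM libraries stood above all ULB libraries, and here WB-GOM-1 was the lowest of the GOM group rather than the highest. The fitted depot difference was 2.34 (SE 0.54, 95% interval 1.14 to 3.54, adjusted p = 0.0435 by edgeR). With the count-based filter of edgeR (filterByExpr) in place of the TPM filter it was not called (2.32, adjusted p = 0.0517 by edgeR). With 1 library omitted it was called only without WB-GOM-1 (adjusted p = 0.0244), and under the other 6 omissions the edgeR adjusted p was 0.0543 without BM-GOM-1, 0.071 without BM-GOM-2, 0.0862 without WB-GOM-2, 0.108 without WB-ULB-2, 0.116 without BM-ULB-2 and 0.14 without WB-ULB-1. Stromal markers did not share the direction as a group. All 10 listed were measured, none was at 0, and their summed level was 3849 to 5866 TPM in GOM and 5519 to 9980 TPM in ULB. DPT (dermatopontin, 2.60, SE 0.34, adjusted p = 0.0027 by edgeR) and PI16 (a marker of fibroblast progenitors, 2.10, SE 0.45, adjusted p = 0.0302 by edgeR) rose, none fell, and COL1A1 (-2.07, adjusted p = 0.0949) and COL3A1 (-1.24, adjusted p = 0.165) had negative values in that fit. The part of stromal cell content in the C7 difference was not tested.

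**Figure D3:**
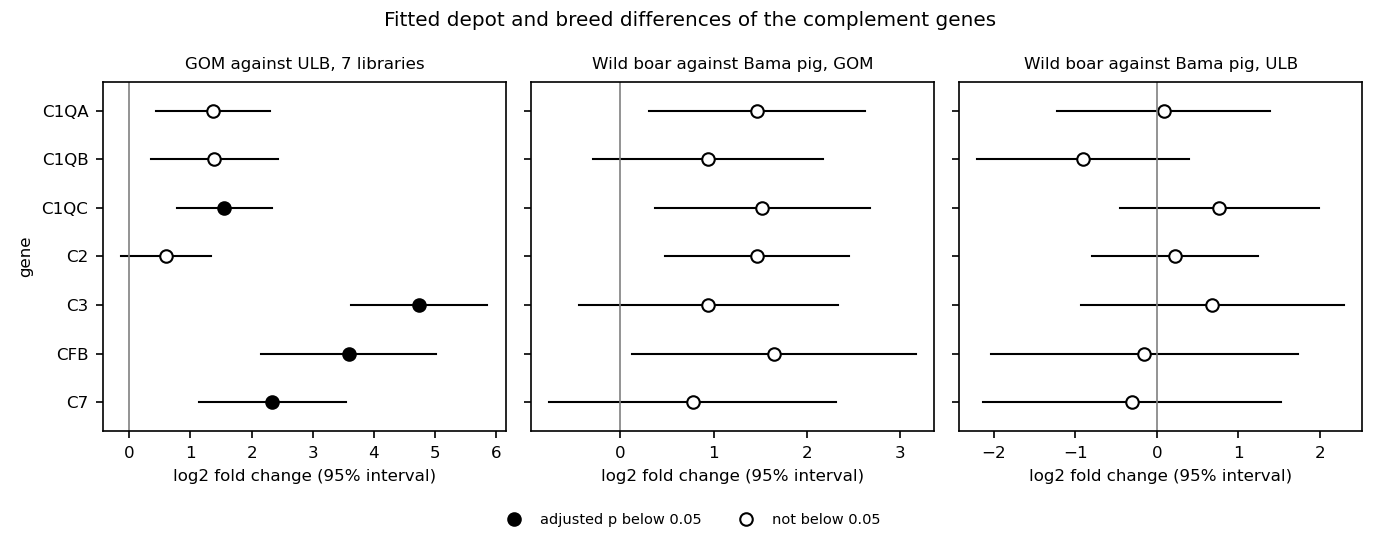
Log2 fold changes of the 7 complement genes from the edgeR fits with 95% intervals, for GOM against ULB (left), wild boar against Bama pig in GOM (middle) and wild boar against Bama pig in ULB (right), where filled points have an adjusted p below 0.05. C1QC, C3, CFB and C7 are filled in the depot panel, and no gene is filled in the breed panels.

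In all, 4 of 7 members rose in GOM and none fell, where 3.6% of the 17877 genes tested were called (644 genes) and 2.29% were called as higher in GOM (410 genes). The members' median log2 fold change was 1.56, beside 0.02 over all genes. DESeq2 called 6 of the 7, all but C2, and it called more genes in all, 1551 of 17877. None of 8 adipocyte and 4 endothelial markers and 1 of 8 lymphocyte markers was called in the same edgeR fit, and acinar pancreas genes, which can mark tissue next to the omentum, summed to 0.287 to 4.99 TPM. In the wild boar libraries alone, where the liver genes summed to no more than 14.5 TPM, C3 (4.81, adjusted p = 0.024), CFB (4.31, adjusted p = 0.0204) and C1QB (2.13, adjusted p = 0.0497) were called by edgeR, and C1QC (1.83, adjusted p = 0.0858) and C7 (2.74, adjusted p = 0.113) were not. The fit of the wild boar libraries alone called 318 of 16183 genes. In TPM, 6 of 7 members had all GOM libraries above all ULB libraries, against 8.34% of 17690 genes. The 6 came down to 3 (C3, CFB and C7) on CPM scaled by TMM, where 8.14% of genes did so.

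Of the mesothelial markers measured, 3 of 4 rose in GOM, as C3 and CFB did. Mesothelium is the epithelial sheet that covers the omentum and is absent from backfat. Of 10 listed markers 4 were found, with a summed level of 166 to 546 TPM in GOM and 3.00 to 17.5 TPM in ULB. UPK1B (7.25, SE 0.78, adjusted p = 0.000937), WT1 (8.79, SE 0.75, adjusted p = 0.000314) and KRT8 (5.16, SE 0.76, adjusted p = 0.00526) rose by edgeR, and KRT18 (0.13, adjusted p = 0.943) did not pass. UPK1B was listed at 0 in WB-ULB-2 and WT1 at 0 in WB-ULB-1. C3 over summed mesothelial markers was 1.24 to 2.61 in the GOM libraries and 0.697, 13.9 and 1.45 in WB-ULB-1, WB-ULB-2 and BM-ULB-2. Within ULB, both C3 (41.7 TPM) and CFB (8.61 TPM) were highest in WB-ULB-2, where the summed markers were lowest (3.00 TPM). The ULB sums were mostly keratin, with KRT8 and KRT18 at 2.54 and 0.353 TPM in WB-ULB-2 and 10.6 and 6.46 TPM in WB-ULB-1. UPK1B and WT1 were at 0 to 0.871 TPM in ULB, so the ULB ratios say little about mesothelial content. The part of mesothelial cells in the C3 and CFB differences was not tested.

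In TPM the liver genes were higher in the BM libraries. No member had every BM library above every WB library, where 11.7% of all genes did, and 0 of 7 is near that share. ALB was at 6.61 and 4.19 TPM in WB-GOM, 293 and 873.5 in BM-GOM, 1.95 and 4.42 in WB-ULB and 77.7 in BM-ULB-2. It thus separated the breeds, with every BM library above every WB library, as did 10 of 11 measured liver genes against 11.7% of all genes in TPM. From WB-GOM to BM-GOM the mean TPM of the 11 liver genes changed by 4.91- to 130.6-fold upwards, with a median of 45.8-fold, whereas BM-GOM over WB-GOM was 0.464 to 0.922 for the members. Between the 2 BM-GOM libraries, BM-GOM-2 over BM-GOM-1 was 1.38 to 8.08 for the liver genes with a median of 3.14, and 0.397 to 3.96 for the members with a median of 1.28. CFB was the member with the highest of these ratios, at 3.96, and C1QB the one with the lowest. C3 over ALB ranged from 0.195 in BM-ULB-2 to 132.4 in WB-GOM-1. In ULB, BM-ULB-2 over the mean of WB-ULB was 1.14 to 24.4 for the liver genes and 0.551 to 1.75 for the members. The highest member there was C1QB, within the range of the liver genes.

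**Figure D4:**
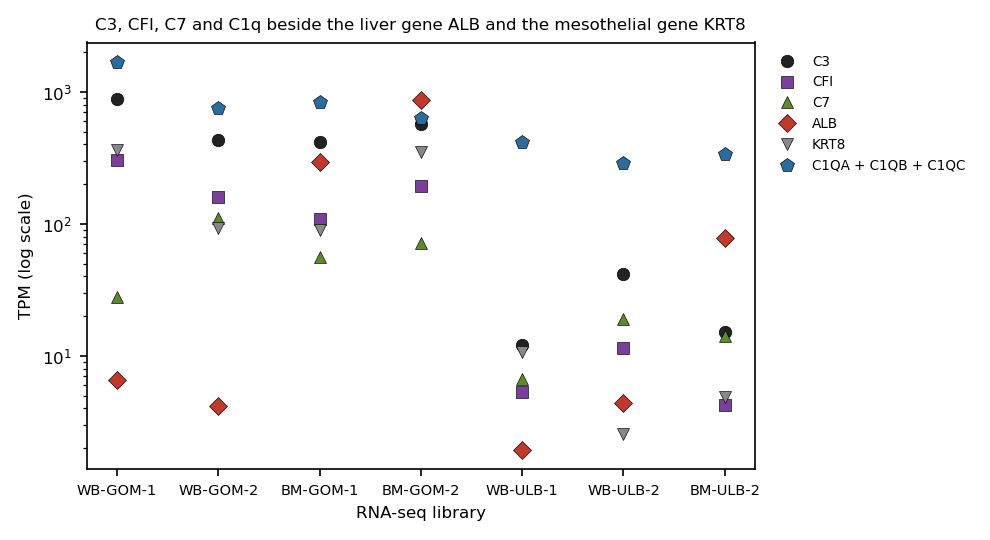
TPM on a log scale of C3, its inhibitor CFI, C7, the summed C1q chains, the liver gene ALB and the mesothelial gene KRT8 in each RNA-seq library, with 1 symbol per gene. ALB is high in the 3 Bama pig libraries (77.7 to 873.5 TPM) in both depots, whereas C3 is high in the 4 GOM libraries (417 to 874 TPM) of both breeds.

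Between breeds, no member passed the test in either depot. In GOM, all 7 members had a positive log2 fold change of wild boar against Bama pig, between 0.78 (C7) and 1.64 (CFB). Their median was 1.47, beside -0.01 over all genes tested, and edgeR adjusted p-values were 0.584 to 0.738. The sign was not particular to the members. It was positive for 9 of 10 macrophage markers (median 0.7) and 9 of 10 stromal markers (median 0.99). It was positive for 4 of 8 adipocyte markers (median 0.03) and 0 of 11 liver genes (median -4.86). Only 4 of 16615 genes (0.0241%) were called in this comparison of 2 against 2 animals, and DESeq2 called none of the 7 members either. At an unadjusted p under 0.05, 4 members and 1329 genes (8.0%) passed in edgeR, and the 4 were C2, C1QA, C1QC and CFB. The interval for C2 was 0.48 to 2.45. In TPM, C1QC, C2 and CFB had both WB-GOM libraries above both BM-GOM libraries, against 3.77% of all genes, and this count of 3 was 5 on CPM scaled by TMM, where 18.9% of genes did so. The median gene stood at -0.48 (log2, wild boar minus Bama pig) in TPM and at 0.12 in CPM scaled by TMM, and C7 changed direction between them, from -0.19 to 0.42. HBB was also higher in the WB-GOM libraries, and its part in these values was not tested.

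In ULB, where the Bama pig group was 1 library whose spread was taken from the other groups, 0 of 7 members were called by edgeR and none by DESeq2, and none had an unadjusted p under 0.05, which 14.9% of genes had, while 45 of 17877 genes (0.252%) were called. The values ran from -0.90 for C1QB (interval -2.20 to 0.39) to 0.77 for C1QC (interval -0.45 to 1.98). The depot effect was also compared between breeds through an interaction contrast in edgeR. It called 0 of 7 members and 0 of 17877 genes (0.0%), with 1 member (C1QB) and 869 genes (4.86%) at an unadjusted p under 0.05, and DESeq2 called 52 genes and no member. C1QB had the widest value, 1.85 (SE 0.75, interval 0.16 to 3.54), and was not called. With breed and replicate number as a block its value was 2.56. In that fit BM-GOM-1 had no ULB library of its number and did not bear on the value. The Bama pig depot effect of C1QB then rested on BM-GOM-2 (187.4 TPM) and BM-ULB-2 (186.7 TPM) alone, taken as 1 animal. The interval for C3 was -1.72 to 2.29 around 0.29.

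Of 40 other complement genes listed, 27 were measured, and 6 rose in GOM and none fell by edgeR. CFI (factor I, the protease that inactivates C3b) was at 303, 160.2, 108 and 195 TPM in GOM and at 5.33, 11.5 and 4.21 TPM in ULB. It rose by 4.91 (SE 0.42, adjusted p = 0.000314 by edgeR). Although C3 varied widely, C3 over CFI lay within 2.28 to 3.85 in all 7 libraries. C4A, which forms the classical convertase with C2, was at 192.6 to 509 TPM in GOM and at 36.9 to 66.1 TPM in ULB and rose by 2.48 (SE 0.50, adjusted p = 0.0242 by edgeR), and C4B was not matched, so that copies of C4 cannot be told apart.

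The receptors ITGB2 (1.71, adjusted p = 0.00502) and ITGAM (1.74, adjusted p = 0.0398), which form complement receptor 3, and VSIG4 (2.12, adjusted p = 0.00859), a macrophage receptor for C3b, rose by edgeR. So did CLU (clusterin, an inhibitor of the terminal complex; 1.68, adjusted p = 0.00785). VSIG4 was at 64.7 to 154.8 TPM in GOM and at 14.8 to 31.4 TPM in ULB. In contrast, CFD (factor D) was at 342 to 546 TPM in GOM and 278.5 to 356 TPM in ULB (0.54, adjusted p = 0.336), and SERPING1, the C1 inhibitor, was at 376 to 730.3 TPM and 278 to 558 TPM (0.27, adjusted p = 0.715), neither past the edgeR threshold. C4BPA, an inhibitor of the classical convertase, was at 323 to 1198 TPM in GOM and 408 to 578.5 TPM in ULB (0.50, adjusted p = 0.535 by edgeR). CFP (properdin), FCN2 (a ficolin), COLEC12 (a scavenger collectin) and CD93 also exceeded a mean of 20 TPM and did not pass, with log2 fold changes of 1.15, -1.20, 1.03 and 0.23 and edgeR adjusted p of 0.0898, 0.129, 0.0703 and 0.699. The inhibitors VTN and C4BPB and the receptor C5AR2 did not pass either. VTN was at 3.12 and 3.02 TPM in WB-GOM, 12.8 and 29.9 in BM-GOM, 3.97 and 5.16 in WB-ULB and 6.47 in BM-ULB-2. C4BPB was at 0.127 to 2.47 TPM and C5AR2 at 1.51 to 3.62 TPM. VTN and C4BPB had every BM library above every WB library in TPM, as 11.7% of all genes did.

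The other terminal pathway genes were scarce and had higher TPM in the BM-GOM libraries. C5, C6, C8A, C8B, C8G and C9 together reached 2.10 and 3.45 TPM in WB-GOM-1 and WB-GOM-2 but 14.7 and 23.3 TPM in BM-GOM-1 and BM-GOM-2. Each of the 6 had both BM-GOM libraries above both WB-GOM libraries, where 46.7% of all genes did so in TPM, although C8G was at 0.61 TPM in both WB-GOM-2 and BM-GOM-1. On CPM scaled by TMM, 4 of the 6 did so, without C8G and C9, against 20.5% of genes. None passed the edgeR test (log2 fold change of wild boar against Bama pig -4.99 to -1.10, adjusted p 0.564 to 0.718). C7 was alone among the terminal genes in exceeding 10 TPM in a library, and it did not share the order of the breeds. The liver genes summed to 428.8 TPM in BM-GOM-1 and 1326 TPM in BM-GOM-2. C5, C6, C8A, C8B and C8G were also higher in BM-GOM-2, by 2.02-, 3.54-, 3.22-, 4.95- and 5.04-fold, whereas C9 was lower (7.81 and 2.16 TPM). C6, C8A and C8B had every BM library above every WB library in TPM, 3 of the 6 against 11.7% of all genes. C5 was highest in WB-ULB-1 (7.85 TPM), where the liver genes summed to 7.66 TPM. The part of liver transcripts in these values was not tested.

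The genes whose log2 CPM profile over the 7 libraries lay nearest to each member profile were then listed, among genes with a mean of at least 10 TPM. Nearest to the C1q mean were ALDH1A3, FLNC and TPPP3, at root mean square differences of 0.23, 0.28 and 0.28, where the median of 7455 genes was 0.94. Macrophage markers lay at a median of 0.81, with AIF1 nearest at 0.50, stromal markers at 1.08, with PDGFRA nearest at 0.53, and the 4 liver genes above the level limit at 2.76. Nearest to C3 were CFI (0.25), ALDH1A2 (0.57) and DSP (0.64), where the median of 7457 genes was 2.42. ALDH1A2 makes retinoic acid and DSP is a desmosomal protein of epithelia. The macrophage marker MARCO and the mesothelial marker KRT8 both lay at 1.15 from C3, the stromal gene DPT at 1.29, UPK1B at 1.75, WT1 at 1.90 and ALB at 3.28. From CFB, KRT8 lay at 1.46, UPK1B at 2.26 and WT1 at 2.63, where the median gene was at 1.99. Nearest to C7 were PRR5L (0.60), HSP70.2 (0.61), which is 1 of several near-identical heat shock genes, and PAPSS2 (0.62), where the median gene was at 1.33. The 10 stromal markers lay at a median of 1.64 from C7, with DPT nearest at 0.68 and 3 of the 10 below the median gene, and macrophage markers at 1.21. These distances share libraries and depth and are descriptions.

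The Hi-C data were read at the members' start sites through PC1, the score that splits each chromosome into active (positive, A) and inactive (negative, B) compartments. The deposited score carries the name A-B index, which the methods define otherwise, as contact with A minus contact with B regions. It was read as PC1 because its mean was 0 on every chromosome of every library, to 10 decimals, and because it ran from -127.9 to 126.1. All 5 distinct 20-kb bins that hold the 7 start sites had a positive PC1 in all 7 libraries, as did 83.1% of the start-site bins of 10278 genes with a mean of at least 1 TPM and 40.8% of all bins. The C3 bin was at 42.4, 47.1, 44.7 and 49.7 in WB-GOM-1, WB-GOM-2, BM-GOM-1 and BM-GOM-2 and at 27.1, 33.0 and 31.4 in WB-ULB-1, WB-ULB-2 and BM-ULB-2. The depots did not overlap at C3, in the same direction as its transcript level. It was the only 1 of the 5 bins where GOM stood above ULB, against 9.17% of all bins and 8.71% of the start-site bins. With so few bins, this count cannot be told apart from those shares. The bin of C2 and CFB was at 45.3 to 52.4 in GOM and 46.5 to 50.8 in ULB, and that of C7 was at 16.2 to 20.4 and 19.3 to 21.5, so both overlapped. Averaged over the 4 bins of the C7 gene, however, ULB (18.6 to 20.8) stood above GOM (9.53 to 17.8), opposite to its transcript level, as it did in 9.65% of all single bins. The bin of C1QB was at 32.2 to 35.8 in the WB libraries and 25.6 to 31.5 in the BM libraries, without overlap, against 7.82% of start-site bins, but not so once PC1 was centred on the chromosome median. With 1 value per library and no test, these are descriptions. Placed by symbol in the RefSeq annotation of the same build, C1R (chr5:63644097-63655149) and C1S (chr5:63670309-63681466) also had start-site bins with every GOM value above every ULB value, at 46.6 to 53.1 against 34.9 to 45.4 for C1R and 47.6 to 50 against 40.1 to 46.6 for C1S.

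**Figure D5:**
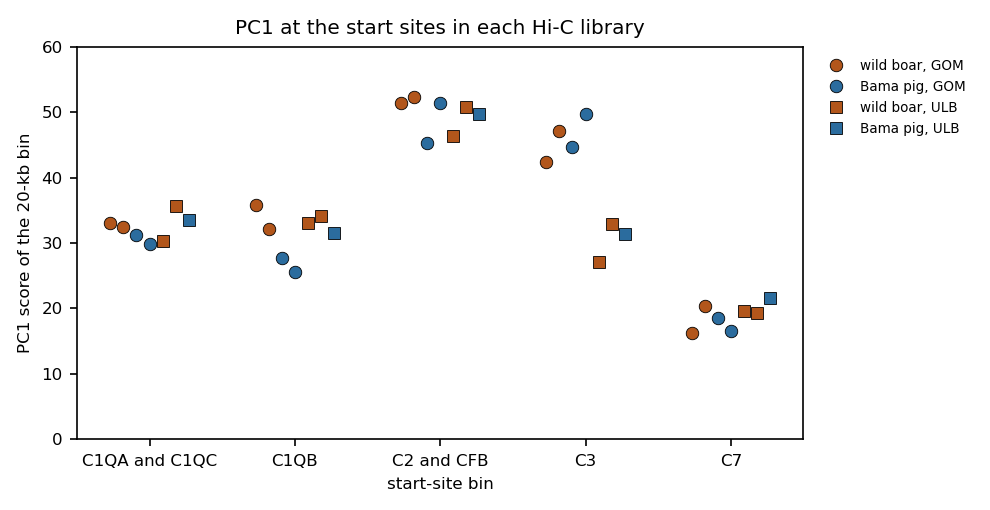
PC1 score of the 20-kb bins that hold the start sites of the measured complement genes, with 1 point per Hi-C library (circles GOM, squares ULB, brown wild boar, blue Bama pig). The C3 bin is at 42.4 to 49.7 in GOM and 27.1 to 33.0 in ULB, and the other 4 bins overlap between depots.

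Topologically associating domains (TADs), stretches of chromosome that contact themselves more than their surroundings, were available as 4 lists, 1 per breed and depot, each called on merged replicates. Of the 28 pairs of a member and a list, 24 had the whole gene within a TAD. C2 and CFB shared a TAD of 720 to 920 kb in all 4 lists, and C3 lay in a TAD of 280 to 340 kb in all 4. The C1q cluster was cut by a TAD end in 3 of 4 lists, where C1QA and C1QC lay within a TAD that ended at chr6:80600000, 1.7 kb before the C1QB start site, and C1QB lay in none. In the BM-ULB list alone the 3 genes shared a TAD of 760 kb. C7 lay in a TAD of 780 kb in 3 of 4 lists, and in none in the BM-GOM list. The lists carry no replicate check, and a TAD end is placed to 20 kb.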

How the data were processed

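RNA-seq and Hi-C of GOM and ULB fat from 2 wild boars and 2 Bama pigs were used, with 7 libraries each. Kallisto was used by the authors for protein-coding genes (version 0.43.0 in the submitters' processing notes, another in the methods) on Sscrofa11.1 with Ensembl models, and unnormalized estimated counts per gene were deposited. TPM values per gene were deposited as well, scaled by Kallisto over transcripts that include unlisted ones. For compartments, a score of each 20-kb bin was deposited under the name A-B index, and was read as PC1 of KR and quantile normalized matrices from its values. TAD positions were deposited per breed and depot, from merged replicates. Library construction was stranded after rRNA depletion.

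Breed, depot and replicate were taken from the labels. Estimated counts were rounded and tested with edgeR 4.0.16 (quasi-likelihood, TMM) in R 4.3.3, over genes with TPM above 0.1 in all libraries of at least 1 group, and called at a Benjamini-Hochberg adjusted p below 0.05 over all genes tested. The breed difference in GOM used the 4 GOM libraries, the depot difference all 7 with breed as a term, and the ULB and interaction contrasts a fit of 4 groups. DESeq2 1.42.0, other filters and scalings, and omission of each library were alternatives. The fits of breed in GOM and of depot were run on simulated data, and the ULB, interaction and block fits were not. Positions and sequences came from the RefSeq annotation and genome of Sscrofa11.1, and the start site is the annotated gene start. Symbols were taken from a table of Ensembl IDs, in which 14821 of 21280 genes had one. All members were named, as were other complement genes that were called, exceeded a mean of 20 TPM or are inhibitors or receptors of a named member, and the 3 genes nearest to the C1q mean, C3 and C7 profiles. The members and lists were chosen with earlier results of these data known. Counts, TPM and intervals cover the animals sampled, and the reads carried no molecular identifiers.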

Additional observations from a re-analysis of the deposited data

Results flagged for a closer look

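C1QC in WB-GOM-1 stood apart from the other 3 GOM libraries. It was at 885 TPM against 302 to 390.4, so that its gap to the nearest library was 0.849 of the range of the group and past the 95% limit of Dixon's test for 4 samples. It was 1 of 7 members examined in this way, and chance flags about 1 in 20 such groups. Without WB-GOM-1 the depot difference of C1QC was 1.21 on the log2 scale (edgeR adjusted p = 0.0872).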

How the results depend on the processing

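Of 322 alternative values of single members, 310 kept their direction, 15 lost a call and 7 gained one. The depot call held for C3 under all alternatives (4.41 to 5.17). The 12 turns of direction were all of members without a call. With 1 library omitted, C1QA ran from -0.42 to 0.46, C3 from -0.34 to 1.27, CFB from -1.19 to 0.44 and C7 from -1.11 to 0.21 for breed in ULB. C7 ran from -0.75 to 1.49 for breed in GOM and from -0.40 to 1.90 for the interaction, and C3 from -0.30 to 1.30 for the interaction. With upper-quartile scaling C1QA was at -0.05 in ULB. The cause was not tested.

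DESeq2 called 167 genes for breed in GOM, 1551 for depot, 418 for breed in ULB and 52 for the interaction, where edgeR called 4, 644, 45 and 0. Without the filter on low values these were 26, 1008, 197 and 7. An additive fit over all 7 libraries gave 75 genes for breed, and the wild boar libraries alone gave 318 for depot. Omission of 1 library gave 0 to 115 genes for breed in GOM, 251 to 667 for depot, 0 to 84 for breed in ULB and 0 to 1 for the interaction, and 1 to 3 called members for depot against 4. The lowest of these was without WB-ULB-2 (C3 alone). Breed in ULB and the interaction could not be fitted without BM-ULB-2. On CPM scaled by TMM, 3 rather than 6 members had GOM above ULB and 5 rather than 3 had WB-GOM above BM-GOM. Upper-quartile scaling moved the median gene by -0.14 for breed in GOM.

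Both depots were taken from the same pigs, but no source used here states that the replicate number marks the animal, so pairing remained an alternative. The deviations of WB-GOM and WB-ULB, 1 of 3 group pairs compared and the only one that can share animals, correlated at 0.154 over 17877 genes. Those of WB-GOM and BM-GOM, which cannot share animals, correlated at 0.15, and those of WB-ULB and BM-GOM at -0.093. These values therefore do not show whether the replicate number marks the animal. With the replicate number as a block (with breed for depot and the interaction), 15 genes were called for breed in GOM, 91 for breed in ULB, 793 for depot and 581 for the interaction, with 5 members for depot and 1 (C1QB, 2.56) for the interaction. In the block fit C1QA (-0.16), CFB (0.25) and C7 (0.22) turned in ULB.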
